A study of Drosophila melanogaster with 8 samples.

Results

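The aquaporin family of *D. melanogaster* was examined along the third instar larval midgut in 7 genes chosen by name: *Drip*, *CG7777*, *CG4019*, *CG17664*, *CG17662*, *CG5398* and *bib*. All 7 symbols matched an entry in the deposited table of 14207 named genes and transcripts. In a later genome annotation *CG7777* is called *Prip*, and *CG5398*, *CG17664*, *CG17662* and *CG4019* are called *Eglp1*, *Eglp2*, *Eglp3* and *Eglp4*.

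The midgut of feeding larvae was cut into 8 subsections for RNA sequencing. The anterior midgut gave M1, M2 and M3-5, the middle midgut gave M6 (the copper cell region) and M7-8, and the posterior midgut gave M9, M10-11 and M12-13. The label gives the strain as w1118, and the methods describe the larvae as progeny of a line that carries GAL4 under the promoter of *Cyp4d2*, crossed with w1118 flies that carry UAS-GFP.nls, so every subsection came from larvae with both transgenes. Nuclear GFP in some of the subsections guided the dissection, tissue was pooled from many larvae, and larvae were reared on a standard diet with no insecticide or other treatment. Larval age in days was not given in the sources used here.

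Each subsection was 1 library, so no difference between subsections could be tested and no value below has an error over larvae. Values are FPKM (fragments scaled to transcript length and, with upper-quartile normalization, to the upper quartile of the library's genes) as the authors' Cuffdiff run gave them, which are set per length and can be compared between genes. The table holds no counts, so the reads behind a single value are unknown. Its 95% intervals had a lower end of 0 for every aquaporin in all 8 subsections, and only their upper ends are used below. Because each library came from a whole piece of tissue, fewer cells of a type and less RNA per cell cannot be told apart.

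Aquaporins are membrane proteins whose subunits each form a narrow pore for water or for small uncharged solutes. In insects, *Drip* and *Prip* proteins are water channels, and the entomoglyceroporins (the Eglp proteins) form a separate branch that also passes glycerol and related solutes. *bib* (*big brain*) is the odd member, known for its part in Notch-dependent neurogenesis in the embryo. In insect guts and Malpighian tubules, water channels let water follow the ions that epithelia pump, and glycerol is a product of the digestion of dietary fat.

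Of the 7 genes, 6 lie close to other family members on 1 chromosome arm. *Drip* (FBgn0015872) lies at 2R:7298708-7317150 and *CG7777* (FBgn0033635) at 2R:7323748-7329721, 6597 bases apart. All ranges here are those of the authors, in FlyBase release 5 coordinates, with 1 added to each start. *CG5398* (FBgn0034882) lies at 2R:19490108-19491164. *CG17664* (FBgn0034883), *CG17662* (FBgn0034884) and *CG4019* (FBgn0034885) were assigned reads together in 1 Cuffdiff bundle, 2R:19491245-19504277, that begins 80 bases beyond *CG5398*. *bib* (FBgn0000180) lies alone of the family on another arm, at 2L:9983671-9995538. The ranges of *Drip* and *bib* each also hold 1 gene outside the family, *CG7763* (0 to 1.23 FPKM) and *CG13130* (listed at 0 in all 8 subsections).

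In the later annotation no pair of the 7 genes shares exon bases, but a long transcript of *CG17664* runs from one side of *CG17662* and *CG4019* to the other. *CG5398* is transcribed toward the other 3 genes of the group, and those 3 are transcribed toward *CG5398*. *CG4019* has 6 transcripts from 4 start sites. The libraries were unstranded, and the split of the bundle's reads among its 3 genes is an estimate, so their summed level is given beside their separate levels.

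**Figure D1:**
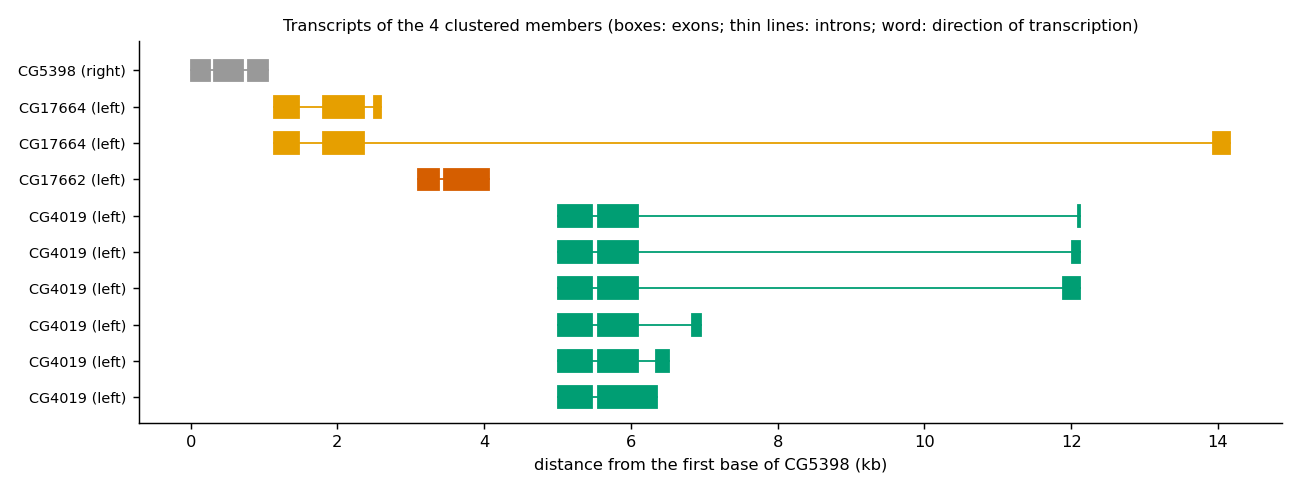
Transcripts of the 4 grouped genes in the later annotation, plotted by distance (kb) from the first base of *CG5398*, with boxes for exons, thin lines for introns and the direction of transcription in words. The long *CG17664* transcript spans 13033 bases and passes over *CG17662* and *CG4019* without sharing an exon base with either.

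Of the 7 genes, 6 were detected, taking a summed FPKM of at least 1 over the 8 subsections as the limit, against 64.4% of all entries. *CG4019* was the most abundant with 2229 FPKM summed over subsections, followed by *CG17664* with 542, *Drip* with 378, *CG7777* with 174.7 and *CG17662* with 149. *bib* was low, with 4.90. *CG5398*, the remaining entomoglyceroporin, was under the limit with 0.408.

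**Figure D2:**
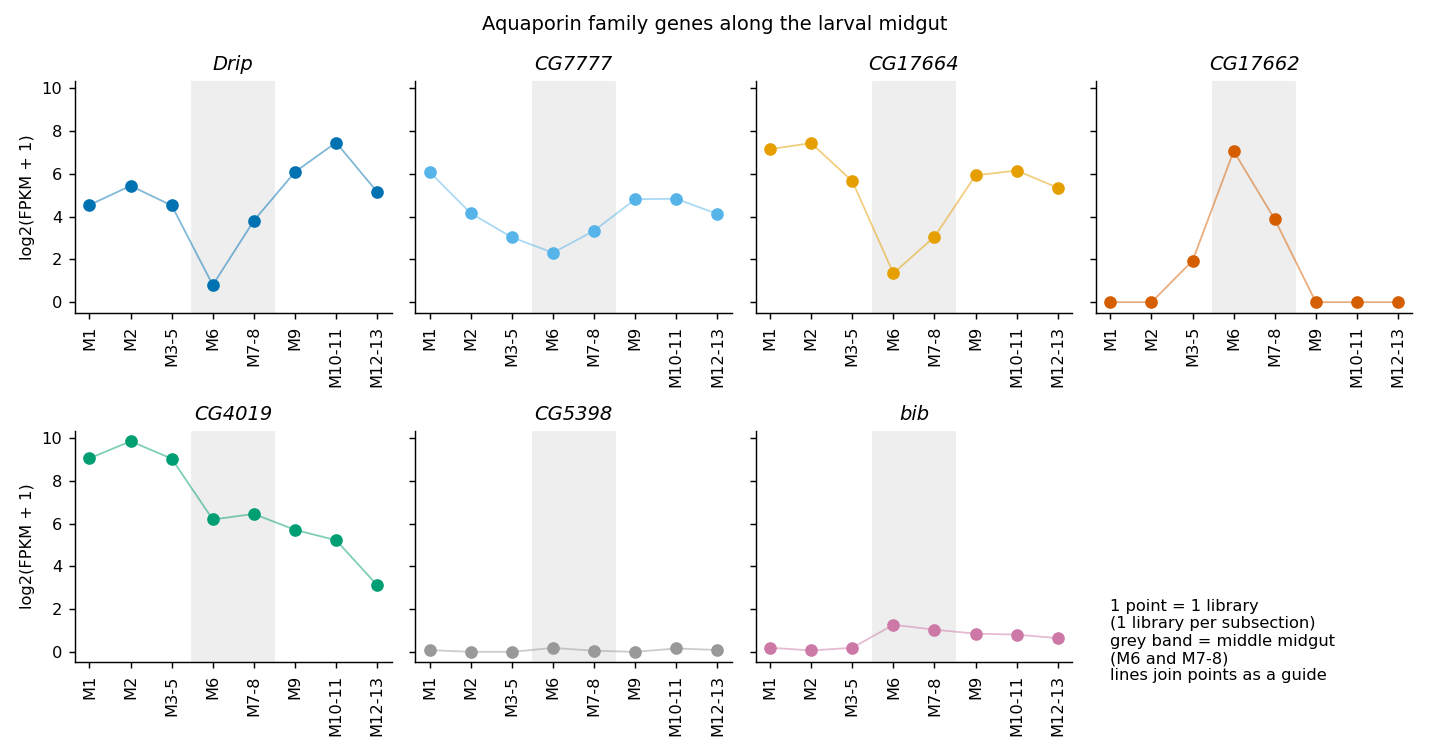
Level of each aquaporin gene as log2(FPKM + 1) in the 8 subsections from front to back, 1 point for each library, with the middle midgut shaded. *Drip* and *CG17664* are lowest and *CG17662* is highest in M6, and *CG4019* is lower in the middle and posterior than in the anterior midgut.

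The water channel *Drip* was highest in the posterior midgut and nearly absent from M6. From M1 to M3-5 it was at 22.4, 42.4 and 22.0 FPKM, in the middle midgut at 0.742 (M6) and 13.1 (M7-8), and from M9 to M12-13 at 67.0, 176 and 34.7. The order from high to low was therefore M10-11, M9, M2, M12-13, M1, M3-5, M7-8 and M6, in which M1 and M3-5 are almost equal. M10-11 was 2.62-fold above M9, the next subsection, and 237-fold above M6. The upper end of the interval in M6 was 2.51 FPKM, and the values of all 7 other subsections lay above it. The steps into and out of M6 were steep, 29.6-fold lower than in M3-5 and 17.6-fold higher again in M7-8, and M9 was a further 5.13-fold above M7-8. Behind the peak, M12-13 was 5.07-fold below M10-11.

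*Drip* is also expressed in the stellate cells of the Malpighian tubules, which join the gut where midgut and hindgut meet. In M10-11, where *Drip* peaked, the 8 genes of a Malpighian tubule list summed to 9.12 FPKM, within a range of 5.66 (M12-13) to 196.9 (M1). Most of the sum in M1 came from *SecCl*, a chloride channel gene at 196.6 FPKM there. Most of it in M7-8 and M10-11 came from *tsh*, a transcription factor gene at 18.5 and 7.61 FPKM. In M12-13 *SecCl* was at 0.0459 FPKM and *tsh* at 0.617, and most of the sum came from the rest of the list. The other 6 genes summed to between 0.0876 FPKM in M1 and 4.99 in M12-13, with 1.43 in M10-11. Of these, *Uro*, *Irk3* and *Oatp58Db* were at 0 in M10-11 and *ct* at 0.00447, while *CapaR* was at 0.458 and *Lkr*, the leucokinin receptor gene of stellate cells, at 0.968. *Uro*, *CapaR*, *Lkr*, *ct* and *Oatp58Db* were highest in M12-13, where *Lkr* was at 3.65 and *Drip* at 34.7. The part of tubule tissue in the level of *Drip* was not tested.

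*CG7777*, the other water channel, had a flatter profile that was highest in M1. Its anterior values were 66.6, 16.8 and 7.18 FPKM from M1 to M3-5, its middle values 3.96 (M6) and 9.14 (M7-8), and its posterior values 27.2, 27.5 and 16.4 from M9 to M12-13. M9 and M10-11 were almost equal, as were M2 and M12-13. The highest value was 16.8-fold above the lowest, in M6, and 2.42-fold above the next, in M10-11. After rescaling to the same summed FPKM, M1 and M10-11 were level (42.6 and 42.3), the lowest was M3-5 and the span was 7.76-fold. The largest step was between M1 and M2, 3.97-fold. In M6 the interval ended at 9.34 FPKM, and 5 other subsections had values above that, M3-5 and M7-8 being the exceptions.

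The relative level of the water channels changed along the gut. *CG7777* was 2.98-fold above *Drip* in M1 and 5.34-fold above it in M6, and *Drip* was the higher gene in the other 6 subsections, by 1.43-fold in M7-8 up to 6.39-fold in M10-11. Their combined level was 88.9, 59.2 and 29.1 FPKM in the anterior midgut, 4.70 in M6, 22.2 in M7-8, and 94.2, 203 and 51.0 in the posterior midgut, each from front to back. It was thus lowest in M6 and highest in M10-11.

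Among the entomoglyceroporins, *CG4019* was the most abundant aquaporin of the anterior midgut. The FPKM values were 530, 921 and 524 from M1 to M3-5, 72.1 in M6 and 86.4 in M7-8, then 51.3, 36.3 and 7.69 from M9 to M12-13. All 3 anterior values were above all 5 others. In M2 it stood above 98.2% of all entries. The border between M3-5 and M6 was the largest step, 7.28-fold, and M10-11 to M12-13 was another of 4.73-fold. From M2 to M12-13 the difference was 120-fold, or 36.0-fold after rescaling to the same summed FPKM. The interval in M12-13 ended at 51.6 FPKM, and 5 other subsections had values above that, all but M9 and M10-11.

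*CG17664* was high at both ends of the midgut and low in the middle. It was at 142, 172 and 49.5 FPKM from M1 to M3-5, at 1.55 in M6 and 7.33 in M7-8, and was at 60.0, 70.2 and 39.8 from M9 to M12-13. The highest value was 111-fold above the lowest, in M6, but only 1.21-fold above the next, in M1, and after rescaling each library to the same summed FPKM the highest was M10-11, 48.1-fold above M6. M6 was 32.0-fold below M3-5, M7-8 was 4.74-fold above M6, and M9 was 8.19-fold above M7-8. The intervals of this gene were wide in front, with an upper end of 3088 FPKM in M2. In M6 the interval ended at 26.2 FPKM, and 6 other subsections had values above that, all but M7-8.

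*CG17662* had the reverse distribution, centered on the copper cell region. It was at 133 FPKM in M6, 13.6 in M7-8 and 2.83 in M3-5, and was listed at 0 in M1, M2, M9, M10-11 and M12-13. M6 held 89.0% of its summed level and was 9.76-fold above M7-8 and 46.9-fold above M3-5. The interval in M6 reached 379 FPKM. That in M3-5 reached 75.6, far above the value itself.

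*CG5398* was at most 0.136 FPKM, in M6, and was listed at 0 in M2, M3-5 and M9. Its summed level was below the limit of detection, and its differences between subsections are not described further. *bib* was at 0.142, 0.0480 and 0.138 FPKM from M1 to M3-5, at 1.41 in M6 and 1.05 in M7-8, and at 0.803, 0.750 and 0.558 from M9 to M12-13. Its 3 anterior values were below the other 5, and it exceeded 1 FPKM in M6 and M7-8 alone. The neuronal genes *elav*, *nSyb* and *brp* were also low, up to 1.07 (M7-8), 1.26 (M3-5) and 0.181 FPKM (M9). Of these, *elav* was lowest in front, at 0.213, 0.0675 and 0.227 FPKM from M1 to M3-5 and at 0.389 or more elsewhere. *esg*, a transcription factor gene of midgut progenitors, was likewise lowest in the anterior subsections (1.44 to 2.02 FPKM) and highest in M6 and M7-8 (9.01 and 9.57). Whether any cell type accounts for the distribution of *bib* was not tested.

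Summed over the 7 genes, aquaporin FPKM was 761, 1153 and 606 from M1 to M3-5, 213 in M6, 131 in M7-8, and 206, 311 and 99.2 from M9 to M12-13, an 11.6-fold span. M2 was the highest and M12-13 the lowest also when libraries were rescaled to the same summed FPKM, but the span was then 3.49-fold, with M7-8 (191) level with M12-13 (190.2). Division by the median ratio of each library's genes gave 12.4-fold. The family took between 0.0183% and 0.0638% of the summed FPKM of named entries, and 0.0297% in M6.

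The leading gene changed from region to region. *CG4019* made up 69.6% of the family's level in M1, 79.9% in M2, 86.5% in M3-5 and 66.2% in M7-8. In M6, between them, *CG17662* led with 62.5% and *CG4019* followed with 33.9%. In the posterior midgut *Drip* led in M9 with 32.5% and M10-11 with 56.6%, and *CG17664* led in M12-13 with 40.2%. The water channels together held between 2.21% and 17.0% of the family's level in the anterior and middle subsections, and 45.7%, 65.4% and 51.5% in M9, M10-11 and M12-13.

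**Figure D3:**
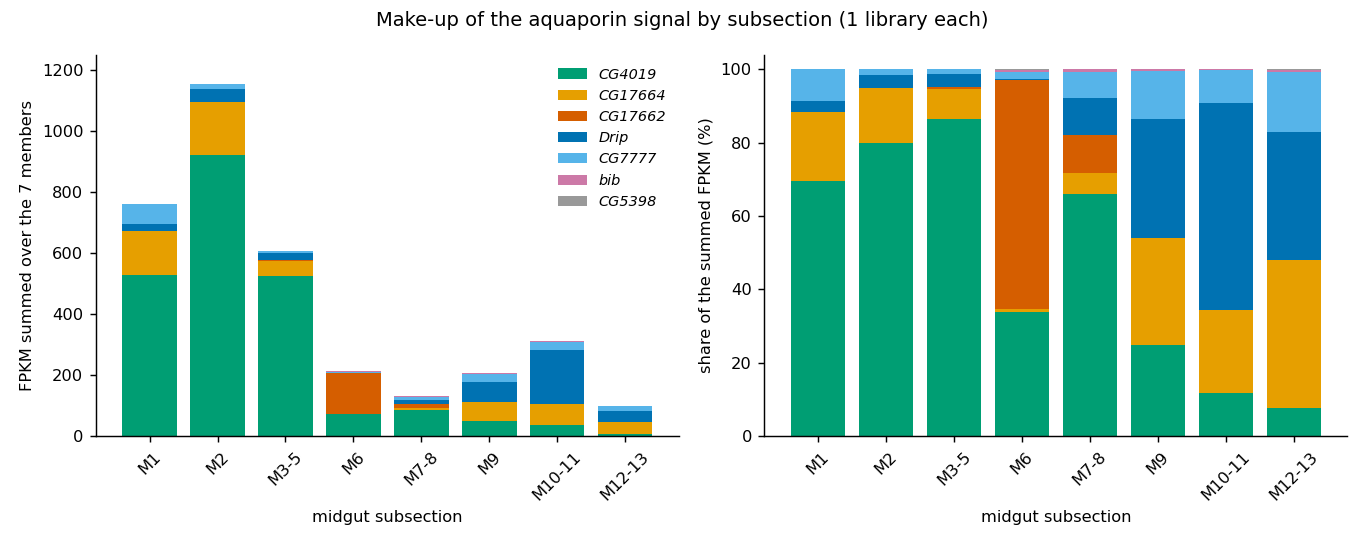
Summed FPKM of the 7 aquaporin genes in each subsection (left) and the share of each gene in that sum in percent (right), 1 library per bar. *CG4019* fills most of the anterior bars, *CG17662* most of the M6 bar (62.5%), and *Drip* most of the M10-11 bar (56.6%).

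Within the shared bundle, the order of the 3 genes was different in the middle, front and back of the midgut. *CG4019* exceeded *CG17664* by 3.73-fold in M1, 5.35-fold in M2, 10.6-fold in M3-5, 46.6-fold in M6 and 11.8-fold in M7-8. From M9 on *CG17664* was the higher gene, with ratios of *CG4019* to *CG17664* of 0.854, 0.518 and 0.193. *CG17662* held 64.3% of the bundle in M6, 12.7% in M7-8 and 0.491% in M3-5. The bundle as a whole summed to 672, 1094 and 577 FPKM in the anterior midgut, 207 in M6, 107 in M7-8, and 111, 107 and 47.5 in the posterior midgut. The summed bundle differed between M6 and the mean of the other subsections by only −0.10 on the log2(FPKM + 1) scale, whereas its genes differed by 6.24 (*CG17662*), −0.73 (*CG4019*) and −4.47 (*CG17664*). The anterior minus posterior difference of the summed bundle was 3.17. The sum was far from level on either side of M6, at 577 FPKM in M3-5 and 107 in M7-8. The part of the division of reads among the 3 genes in these differences was not tested.

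The family was then set against all 9156 detected genes, on the log2(FPKM + 1) scale. Of the 6 detected aquaporins, 5 (*Drip*, *CG7777*, *CG4019*, *CG17662* and *CG17664*) were at least 8-fold apart between their highest and lowest subsections, against 13.2% of detected genes. *CG7777* was within that limit after rescaling to the same summed FPKM (range 2.75). The median range was 6.38 for the 6 genes and 1.41 for all detected genes. *bib*, with a range of 1.20, was the exception. Only *CG17662* was at least 4-fold higher in 1 subsection than in the next (2.35% of detected genes), and without M6 no aquaporin was. A step of at least 4-fold between neighboring subsections was found in *Drip*, *CG4019*, *CG17662* and *CG17664*, 4 of 6 genes, against 16.1% of detected genes. In all 4 the largest step was at the border between M3-5 and M6. Rescaling to the same summed FPKM changed that border from 29.6-fold to 15.6-fold for *Drip*, from 32.0-fold to 16.9-fold for *CG17664*, from 7.28-fold to 3.84-fold for *CG4019* and from 46.9-fold to 88.8-fold for *CG17662*. *CG4019* then had no 4-fold step, and *CG7777* had one between M1 and M2 (4.41-fold).

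Of the 6 detected aquaporins, 3 had their lowest value in M6 and 2 their highest, against 36.2% and 9.33% of detected genes. *Drip* had a log2(FPKM + 1) level of 0.80 in M6 and a mean of 5.29 in the other 7 subsections, a difference of −4.49, and 1.09% of detected genes had a lower difference. For *CG17664* the levels were 1.35 and 5.82, and 1.15% of detected genes had a lower difference than its −4.47. *CG7777* followed with −2.03. These 3 of 6 genes were at least 4-fold lower in M6, against 6.31% of detected genes. *CG7777* lay at the limit and was within it after either rescaling (−1.66 and −1.67) and against M3-5 and M7-8 alone (−0.88).

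In the other direction, *CG17662* was the only aquaporin at least 4-fold higher in M6, against 2.29% of detected genes. Its level was 7.06 in M6 and 0.83 on average elsewhere, and 0.25% of detected genes had a difference above its 6.24. *CG4019* differed by −0.73 and *bib* by 0.73, both inside the limits. The median difference was −1.38 over the 6 aquaporins and −0.30 over all detected genes.

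**Figure D4:**
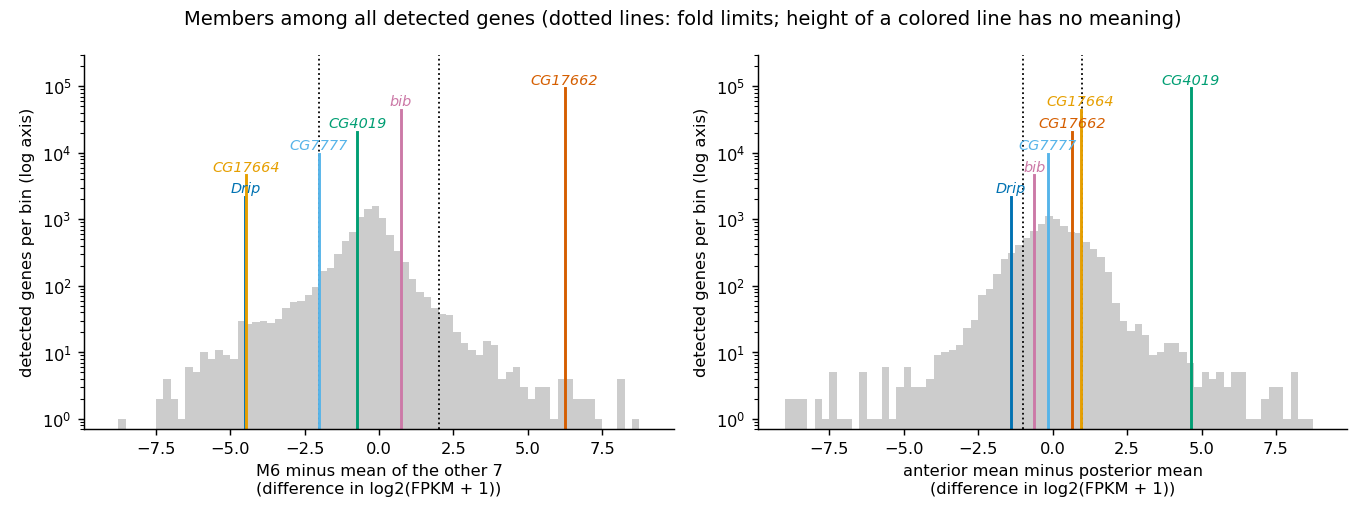
Number of detected genes (log axis) by the difference of M6 from the mean of the other 7 subsections (left) and of the anterior from the posterior mean (right), both in log2(FPKM + 1), with colored lines at the aquaporins and dotted lines at the fold limits. *Drip* and *CG17664* lie in the left tail for M6 and *CG17662* far in the right tail, and *CG4019* lies in the right tail of the anterior to posterior difference.

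The M6 library stood apart from the others. The methods state that RNA from this subsection degraded more readily and gave fewer reads. The median ratio of its genes to their geometric mean was 0.774, against 0.994 to 1.08 in the other libraries, and 36.2% of detected genes had their single lowest value there. The summed FPKM ran from 542365 in M12-13 to 1.80616e+06 in M2, with 717378 in M6, and between 6764 and 7360 genes exceeded 1 FPKM. An unnamed entry with a failed quantification, left out here, would have held 48.4% of all FPKM in M6 and 4.24% to 13.8% in the other libraries. With it counted, the family's share in M6 would be 0.0153% in place of 0.0297%. Dividing by the median ratio moved the median M6 difference of all genes from −0.30 to −0.04. The differences were then −4.26 for *Drip*, −4.18 for *CG17664* and 6.62 for *CG17662*. Such a division scales all genes of a library alike, and the part of RNA degradation and depth in these differences was not tested.

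Markers of several cell types also differed in M6. The copper cell genes *lab*, *Ptx1* and *dve* summed to 93.7 FPKM in M6 and 124 in M7-8, and to at most 7.82 elsewhere, so the copper cell markers were present in the subsections labeled as middle midgut. *Myo61F*, an enterocyte brush border myosin gene, was at 57.7 FPKM in M6 and between 189 and 615 elsewhere. The other enterocyte genes were closer to their levels elsewhere, with *nub* at 7.11 FPKM in M6 against 9.49 to 40.6, and *Myo31DF* at 89.6 against 96.1 to 171. The 6 visceral muscle genes summed to 459 FPKM in M6 and up to 1514 in M12-13. Genes of the hindgut, trachea, hemocytes and salivary gland summed to at most 1.73 FPKM for each list in any subsection. The part of these cell types in the aquaporin levels was not tested.

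Between the anterior and the posterior midgut, *CG4019* and *Drip* had opposite directions. The mean log2(FPKM + 1) of *CG4019* was 9.31 over the 3 anterior and 4.68 over the 3 posterior subsections, a difference of 4.63, and 0.74% of detected genes had a larger one. It was the only aquaporin at least 2-fold higher in front, against 16.8% of detected genes. *Drip* had means of 4.84 and 6.24 and a difference of −1.40, and was the only one at least 2-fold lower in front, against 15.7%. Without M10-11 its difference was −0.79, inside the limit. After rescaling to the same summed FPKM the differences were 3.46 for *CG4019* and −2.57 for *Drip*.

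The remaining genes lay inside the limits. *CG17664* was higher in front by 0.94 but lower by 0.25 when libraries were rescaled to the same summed FPKM. That rescaling moved the median difference of all genes from 0 to −0.69. *CG7777* differed by −0.17, or by 0.53 without M3-5, *bib* by −0.62 and *CG17662* by 0.65. Short transcripts had higher values in the anterior libraries than long ones, and the difference shown by genes of the same length was 0.77 for *CG4019* (median transcript 1160.5 nt), 0.48 for *Drip* (1444 nt) and 0.87 for *CG17664* (1066.5 nt). With it subtracted, *CG4019* differed by 3.86, *Drip* by −1.88 and *CG17664* by 0.07. Fat body genes were also higher in front. Of the 6 listed, 5 were detected, and all 5 were at least 2-fold higher in front, against 16.8% of detected genes. The summed level of the list ran from 0.29 to 35.3 FPKM over the subsections. The part of fat body in the level of *CG4019* was not tested.

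For each of the 5 abundant aquaporins, the 3 genes with the most similar profile were found. Similarity was Pearson's r of log2(FPKM + 1) over the 8 subsections, among 6084 genes with a mean above 3 FPKM. The coefficients describe 8 libraries that share one scaling each, and M6 weighs heavily in them: without M6, 2 of the 15 genes remained in the lists. *CG17662* was most like *lab* (r = 0.99), the homeotic gene needed to form copper cells, followed by *Nmdmc* (r = 0.98), which encodes an enzyme of folate metabolism, and *CG34198* (r = 0.97). *lab* was at 0.0453, 0.0272, 2.53, 32.9, 5.40, 0.0458, 0.134 and 0.498 FPKM from M1 to M12-13. Both genes were thus highest in M6, next in M7-8 and then in M3-5. *Ptx1* and *dve*, in contrast, were higher in M7-8 (92.7 and 25.6 FPKM) than in M6 (41.1 and 19.7).

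**Figure D5:**
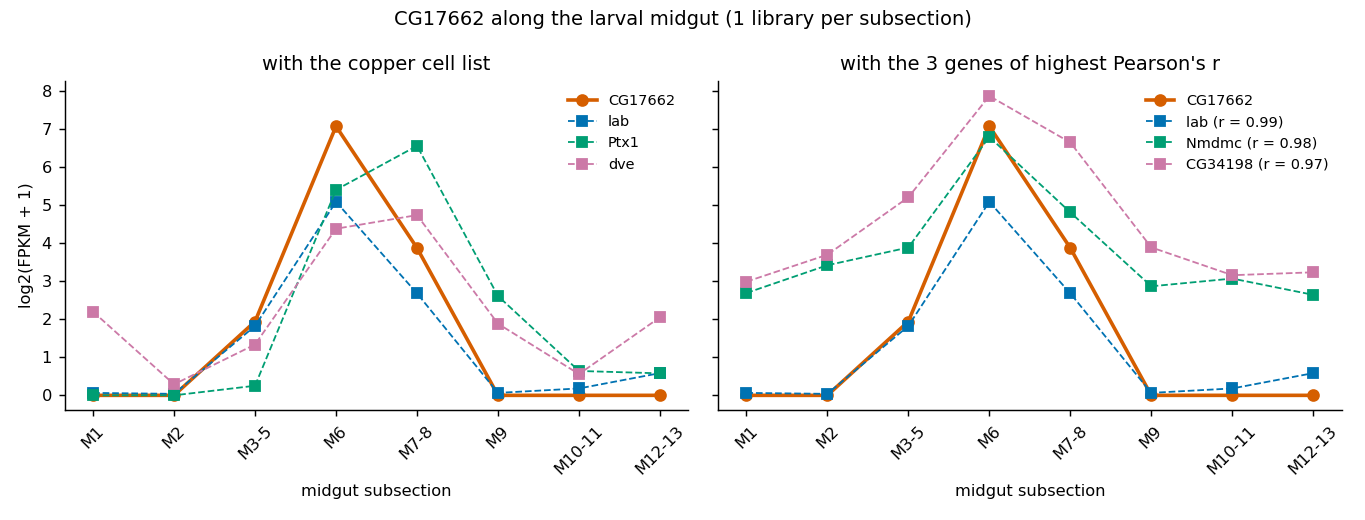
Level of *CG17662* as log2(FPKM + 1) in the 8 subsections, with the copper cell genes *lab*, *Ptx1* and *dve* (left) and with the 3 genes of highest Pearson's r (right), 1 library per point. *CG17662* and *lab* are highest in M6, while *Ptx1* and *dve* are highest in M7-8.

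The other profiles had different companions. *CG4019* was most like *Vps36* (r = 0.99, but −0.76 after rescaling to the same summed FPKM), which encodes an endosomal sorting protein, *Dh31* (r = 0.99), a peptide hormone gene of enteroendocrine cells, and *CG17982* (r = 0.98). *Dh31* was at 94.8, 92.0 and 61.2 FPKM in the anterior subsections and at 5.08 in M12-13. *Vps36* varied far less, between 7.96 and 15.1 FPKM, so a high coefficient here does not mean a similar size of change. Of 6 listed enteroendocrine genes, only *Dh31* was at least 2-fold higher in front, by 2.64 on the log2(FPKM + 1) scale. *Tk*, *AstC* and *AstA* were at least 2-fold lower there (−3.02, −2.56 and −2.34). *NPF* and *pros* were lower by less than 2-fold (−0.40 and −0.24). The part of enteroendocrine cells in the level of *CG4019* was not tested. *CG17664* was most like *CG9360* (r = 0.99), *CG6287* and *CG33301*, all of which were lowest in M6, with 0.719, 2.72 and 0.188 FPKM. The genes like *Drip* included *ApepP* (r = 0.98), an aminopeptidase gene, and *CG1902* (r = 0.97). *CG7777* was most like *daw* (r = 0.97), a ligand gene of the activin type, *CG34251* (r = 0.96) and *Treh* (r = 0.93), the trehalase gene. *Treh* was at 91.3 FPKM in M1 and 2.52 in M6. After rescaling to the same summed FPKM, 5 of the 15 genes remained in the lists, and 8 after division by the median ratio. *lab* was again first for *CG17662* under both, but was the 5th with a pseudocount of 0.1 (r = 0.97) and the 4th without M6 (r = 0.98).

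Among the aquaporins themselves, *Drip* and *CG17664* had the closest profiles (r = 0.78), and *CG7777* was near both (r = 0.66 with *Drip* and 0.77 with *CG17664*). *CG17662* ran opposite to all 3, with r = −0.89, −0.80 and −0.94. *CG4019* resembled none of them closely (r between −0.11 and 0.37). *CG17662* and *CG17664* share no exon bases in the later annotation and were quantified in the same bundle. The part of the division of reads in their opposite profiles was not tested.

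Glycerol enters metabolism through glycerol kinase and glycerol-3-phosphate, and 9 genes of glycerol and polyol metabolism were examined beside the glyceroporins. All 9 were detected. M6 held the lowest value of 7 of them, against 36.2% of detected genes, and 4 of 9 were at least 4-fold lower in M6 than elsewhere, against 6.31%. *Gyk*, a glycerol kinase gene, was at 136 FPKM in M1 and 17.2 in M6, and *CG7995*, another, at 109 and 17.3. *Gpdh*, the glycerol-3-phosphate dehydrogenase gene, was at 5708 and 284 FPKM, and *Gpo-1*, its mitochondrial counterpart, at 181 and 23.0. None of the 9 was at least 4-fold higher in M6, against 2.29% of detected genes. In M6 *CG17662* had its highest value and *CG4019* was at 72.1 FPKM.

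Along the gut, *Gpdh* was 1.86 higher in front on the log2 scale and *CG1271*, a gene of the glycerol kinase family, 1.22 higher, and these 2 of 9 were past the 2-fold limit (16.8% of detected genes). None of the 9 was at least 2-fold lower in front, against 15.7% of detected genes. *Sodh-1*, a sorbitol dehydrogenase gene, peaked in M12-13 with 349.6 FPKM and was at 7.78 in M9, whereas *CG4019* was lowest in M12-13. The median differences of the 9 genes were −1.14 for M6 and 0.30 for front against back.

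Of 19 genes of epithelial ion and water transport, 17 were detected, the exceptions being the potassium channel genes *Irk2* and *Irk3*. Of the 17, 8 were at least 8-fold apart between subsections, against 13.2% of detected genes. In M6, 4 of the 17 were at least 4-fold lower (6.31% of detected genes), as *Drip* and *CG17664* were. *Ndae1*, a sodium-driven anion exchanger gene, was at 154 FPKM in M9 and 4.02 in M6, and *ClC-a*, a chloride channel gene, at 69.9 in M7-8 and 0.887 in M6. *NKCC*, a sodium, potassium and chloride cotransporter gene, was at 167 FPKM in M3-5 and 1.45 in M6, and *CAH2*, a carbonic anhydrase gene, at 312 in M1 and 3.28 in M6. *CAH1*, the other carbonic anhydrase gene, was the only one at least 4-fold higher in M6, as *CG17662* was, with 188 FPKM in M6, 166 in M7-8 and 1.62 in M1.

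Several ion transport genes were highest in M7-8, where no aquaporin and 17.3% of detected genes had their highest value. *Irk1* was at 355 FPKM there, *kcc*, a potassium and chloride cotransporter gene, at 214, and *Nhe2*, a sodium and proton exchanger gene, at 51.7. The sodium pump gene *Atpalpha* was nearly even, between 35.6 and 49.4 FPKM. Of the 17, 4 were at least 2-fold higher in front (16.8% of detected genes) and 5 at least 2-fold lower (15.7%). In M10-11, where *Drip* peaked, *CAH2* (0.361 FPKM), *Irk1* (3.37 FPKM) and *nrv1* (40.2 FPKM) were at their lowest. The sodium and proton exchanger genes *Nhe1* (49.1 FPKM) and *Nhe3* (53.5 FPKM) were at their highest there. So was *ClC-c*, a chloride channel family gene, with 59.9 FPKM against 57.3 in M7-8. *nrv1*, *Nhe1*, *Nhe3* and *ClC-c* were less than 8-fold apart between subsections and were named after their values were seen.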

How the data were processed

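RNA-seq was performed on 8 subsections of the larval midgut, with 1 library for each. According to the study's methods, single-end reads from unstranded Illumina libraries were quality filtered with PRINSEQ and mapped to FlyBase release 5. Submitters' processing notes name TopHat2 2.0.6 and Cuffdiff 2.0.2. The authors computed the deposited FPKM with upper-quartile scaling, multiread and fragment bias correction, and dispersion estimated without replicates. Interval ends were also deposited, on the same scale.

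One entry without a name, whose quantification failed, was left out, and 143 entries with a status other than OK were kept. Values were used as log2(FPKM + 1), and a gene counted as detected where its FPKM summed to 1 or more, following the study. With 1 library per group no test was possible, and fold limits were counted beside their share over all detected genes. These limits were 8-fold for the range, 4-fold for M6, for the gap to the next subsection and for steps between neighbors, and 2-fold for the anterior against the posterior mean. Differences computed with a pseudocount understate the changes of low genes. The M6 difference is the level in M6 less the mean level elsewhere.

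Every aquaporin was named, with the 3 genes most like each of the 5 abundant ones, members of the glycerol and ion transport lists, and markers beside the results they touch. Members and lists were chosen with earlier results of these data known. Names, transcripts and lengths came from Ensembl release 115, joined by gene identifier. The length trend was a lowess curve (share 0.3) over 5857 genes. Python 3.11.15 with numpy 2.4.6, pandas 2.3.3, statsmodels 0.14.6 and matplotlib 3.10.9 was used, and the calculations were tested on simulated data. Alternatives were a pseudocount of 0.1, other detection limits, 2 rescalings, entries with a status other than OK left out, M6 against its neighbors, subsections left out, and removal of the length trend. Leaving M6 out, and the effect of settings on the genes most like a member, were chosen after seeing the data. Leaving out entries with a status other than OK changed no count, since all aquaporins had the status OK. Isoform values were not used here. A gene among those most like an aquaporin is not reported here.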

Additional observations from a re-analysis of the deposited data

How the results depend on the processing

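The counts of aquaporins detected, 8-fold apart, 4-fold lower or higher in M6 and with a 4-fold step stayed within 1.5 times under every alternative run for them. The anterior and posterior counts were less stable. The count at least 2-fold higher in front was 1, against 16.8% of detected genes. It was 2 with a pseudocount of 0.1 (*CG17662* joined), against 21.6%. It was also 2 without M3-5 (18.6% of detected genes) and without M10-11 (16.9%), where *CG17664* joined. The count at least 2-fold lower in front was 1, against 15.7% of detected genes. It was 2 with a pseudocount of 0.1 (*bib* joined), against 24.1%. After rescaling to the same summed FPKM it was 2 (*CG7777* joined), but 39.2% of detected genes were then past this limit. Without M10-11 it was 0, against 15.7%. The anterior minus posterior difference reversed for *CG17664* after rescaling to the same summed FPKM (−0.25), for *CG7777* without M3-5 (0.53), and for *bib* (0.16) and *CG17662* (−0.41) with the length trend removed. The cause was not tested. That rescaling moved the median difference over all genes by −0.69. Without M6, 0 aquaporins were 4-fold above their next subsection, and *CG17662* was 1.93 above on the log2 scale. Of the 15 genes most like an aquaporin, 5 remained after rescaling to the same summed FPKM, 8 after division by the median ratio and 2 without M6. No paired analysis was possible because each subsection has 1 library. Without counts or replicates, values near 1 FPKM, such as *Drip* in M6 or *bib*, have an unknown number of reads behind them.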
